A study of Mus musculus with 4 samples.

Results

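Within the CM1 cardiomyocytes of the neonatal mouse heart, 931 nuclei of 6440 had received the label CM3 when populations from an earlier atlas were transferred to them, and they are described here. They were taken as all nuclei that the deposited annotation places in CM1 and whose transferred label is CM3, out of 8585 cardiomyocyte nuclei in all. The final annotation has 4 populations, CM1, CM2, CM4 and CM5, and the study merged CM3 into CM1 because their nuclei overlapped in the embedding. The 931 nuclei, called CM3-labelled below, were compared in each library with the 5305 CM1 nuclei whose transferred label was CM1.

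Single-nucleus RNA sequencing had been performed on 4 libraries, 1 for each combination of genotype and surgery. Mice of the groups called WT-MI and WT-Sham carried the loxP-flanked Nrf1 allele (Nrf1fl/fl) without Cre, and those of KO-MI and KO-Sham carried the same allele with a Cre recombinase under the αMHC promoter, which is active in cardiomyocytes. Pups on a C57BL/6 background underwent either MI, in which the left anterior descending coronary artery was tied off, or Sham surgery without the tie, at postnatal day 3, and hearts were collected 1 day later. The strain entries of the labels read C57BL/6, C57BL/7, C57BL/8 and C57BL/9 for WT-MI, KO-MI, WT-Sham and KO-Sham. Each library came from 1 pool of 4 to 6 such hearts, taken below the tie, so there were no replicates, and each difference below is between the libraries named. A set of 4 values is always in the order WT-MI, KO-MI, WT-Sham and KO-Sham. No test was made, and all intervals are 95% intervals that cover counting error alone.

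Cardiomyocytes contract through sarcomeres, repeated filaments whose proteins include titin (Ttn) and troponin T (Tnnt2), and contraction is triggered by calcium that leaves internal stores through the ryanodine receptor (Ryr2). In the first days after birth the mouse ventricle can still regrow after injury, and its cardiomyocytes differ in maturity, in position and in how they respond to ischemia. A label transfer scores each nucleus for its likeness to reference populations, and the label is the population with the highest score.

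The CM3 score of the 931 nuclei, on a scale from 0 to 1, had medians of 0.732, 0.751, 0.764 and 0.755. A score of at least 0.5 was held by 866 of them and a lower one by 65. CM1 was the second label of 870 nuclei, CM2 of 45, CM4 of 8 and CM5 of 5, and 3 had no second score. These are transferred labels, which need not match the population of the same name in the final annotation. The boundary was narrow in places, with 97 CM3-labelled and 80 CM1-labelled nuclei whose CM3 and CM1 scores lay within 0.1 of each other. The nucleus just inside it scored 0.4693 for CM3 and 0.4687 for CM1, and the nucleus just outside scored 0.4789 and 0.4793.

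CM3-labelled nuclei were present at a similar share in every library. They made up 13.6% of CM1 nuclei of WT-MI (192 of 1415, Clopper-Pearson interval 11.8 to 15.5) and 14.2% of those of KO-MI (186 of 1308, 12.4 to 16.2). The share was 12.9% for WT-Sham (142 of 1098, 11.0 to 15.1) and 15.7% for KO-Sham (411 of 2619, 14.3 to 17.1). KO-Sham stood highest, 2.76 percentage points above WT-Sham (interval 0.23 to 5.17). The difference between KO-MI and WT-MI was 0.65 points (-2.00 to 3.31), that between WT-MI and WT-Sham was 0.64 (-2.12 to 3.34) and that between KO-MI and KO-Sham was -1.47 (-3.82 to 0.96), and each of these intervals held 0. The label was spread over all 4 clusters that make up CM1, with shares of 12.5%, 17.1%, 14.2% and 16.1%. These shares count labelled nuclei, and nuclei of a pool are not replicates of a condition.

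In depth and RNA composition the 2 labels were mostly close within each library, with exceptions. Nuclear long RNA had a log2 ratio, CM3-labelled over CM1-labelled, of 0.161 (0.151 to 0.17) in KO-MI. Red blood cell RNA had ratios of -0.202, -0.1, -0.637 and -0.533. The median CM3-labelled nucleus held 3768.5, 3962, 3762.5 and 2588 UMIs (unique molecular identifiers, counted RNA molecules), against 4104, 4038.5, 3730 and 2653 for CM1-labelled nuclei. The median number of genes expected at 1000 UMIs was 632.7, 631.5, 652.0 and 635.3 against 635.2, 642.0, 650.7 and 638.0. Mitochondrial transcripts took 5.06%, 4.88%, 5.93% and 8.94% of UMIs at the median against 5.08%, 5.04%, 6.13% and 8.66%, so KO-Sham was both the shallowest library and the highest in mitochondrial RNA under either label. Summed over nuclei, the CM3-labelled sums held 759808, 763442, 532861 and 1106527 UMIs. Barcodes shared between libraries numbered 9, of which 3 belonged to a CM3-labelled nucleus.

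Levels below are CPM, counts scaled to a sum of 1000000 UMIs over all CM3-labelled or all CM1-labelled nuclei of a library. The cardiomyocyte markers were at the level of ordinary CM1 nuclei. Ttn stood at 12850, 12070, 11070 and 8876 CPM in CM3-labelled nuclei, against 12830, 11510, 11000 and 9291 in CM1-labelled nuclei. Ryr2 stood at 7926, 7543, 9937 and 7928 CPM against 7650, 7035, 9707 and 8163. Tnnt2 stood at 2824, 3310, 4219 and 5062 CPM against 2886, 3328, 4286 and 5059. None of the 12 log2 ratios of these markers lay further from 0 than the 0.10 of Ryr2 in KO-MI, so the nuclei carried cardiomyocyte RNA at the levels of the rest of CM1.

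Nfe2l1, the gene of the targeted factor Nrf1, did not separate the genotypes in these nuclei. It stood at 32.9, 58.9, 63.8 and 52.4 CPM on 25, 45, 34 and 58 UMIs, so KO-MI was above WT-MI and KO-Sham below WT-Sham. The log2 ratio was 0.84 (0.11 to 1.61) for KO-MI over WT-MI, past the 1.5-fold used below to call genes between libraries, and -0.28 (-0.92 to 0.37) for KO-Sham over WT-Sham. Over all nuclei it stood at 47.4, 55.3, 62.2 and 50.5 CPM. The deleted exons were not given in the sources used here, and a 3′ tag outside them says nothing about the deletion, so directions between genotypes are directions between libraries so labelled.

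What marked the CM3 label most was 1 stretch of chromosome 11 that holds the gene Ddc. Ddc encodes aromatic L-amino acid decarboxylase, the enzyme that makes dopamine from L-DOPA and serotonin from 5-hydroxytryptophan, and it lies beside Grb10 in a region of the mouse genome that is known for imprinting, that is, for expression from the copy of 1 parent. On GRCm38 Ddc spans chr11:11814101-11898144 on the minus strand. The noncoding transcript 1700042O10Rik lies inside it on the opposite strand, at chr11:11868123-11885321. Fignl1, an ATPase that takes part in the repair of DNA breaks, lies 5139 bases from Ddc at chr11:11787431-11808962 on the minus strand, with its start on the side of Ddc.

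Promoter windows of these 3 genes, which set them side by side as neighbours with unlike sequence, are given from RefSeq on GRCm38.p6, from 250 bases before the start to 50 after it, 5′ to 3′ on the gene's strand. Capitals mark matches to any of the 4 motifs searched on both strands, which were AGATAA, bound by factors of the Gata family, TATAAA, the core of the box upstream of many tissue-specific genes, CCGCCC, bound by factors of the Sp family, and CAGGTG, bound by helix-loop-helix factors. No matches overlap here. RefSeq lists a pair of start sites for Ddc.
Ddc, start 1, chr11:11898095-11898394, minus strand: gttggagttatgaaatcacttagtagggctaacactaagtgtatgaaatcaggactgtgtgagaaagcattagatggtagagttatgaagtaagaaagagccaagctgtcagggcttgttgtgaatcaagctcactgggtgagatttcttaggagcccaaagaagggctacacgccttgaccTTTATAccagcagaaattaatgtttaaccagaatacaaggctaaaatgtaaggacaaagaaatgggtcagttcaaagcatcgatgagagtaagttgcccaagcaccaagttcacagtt
Ddc, start 2, chr11:11890359-11890658, minus strand: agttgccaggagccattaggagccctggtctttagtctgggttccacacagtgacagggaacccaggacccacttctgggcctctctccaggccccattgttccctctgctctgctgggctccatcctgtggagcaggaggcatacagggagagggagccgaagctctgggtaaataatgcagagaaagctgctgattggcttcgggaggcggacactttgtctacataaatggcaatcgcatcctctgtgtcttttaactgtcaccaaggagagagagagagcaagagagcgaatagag
1700042O10Rik, chr11:11867873-11868172, plus strand: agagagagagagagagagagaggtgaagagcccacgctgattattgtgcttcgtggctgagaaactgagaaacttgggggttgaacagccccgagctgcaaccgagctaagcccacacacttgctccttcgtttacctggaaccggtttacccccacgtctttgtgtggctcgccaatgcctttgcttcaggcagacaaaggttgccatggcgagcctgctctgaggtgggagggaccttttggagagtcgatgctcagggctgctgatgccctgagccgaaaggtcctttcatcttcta
Fignl1, chr11:11808913-11809212, minus strand: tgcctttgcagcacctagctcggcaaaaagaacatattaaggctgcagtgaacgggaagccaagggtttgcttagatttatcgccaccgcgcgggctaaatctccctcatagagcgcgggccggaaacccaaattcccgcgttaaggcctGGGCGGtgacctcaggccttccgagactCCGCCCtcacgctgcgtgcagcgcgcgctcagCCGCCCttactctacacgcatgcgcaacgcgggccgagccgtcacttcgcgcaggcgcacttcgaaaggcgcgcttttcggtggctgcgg

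The first Ddc window held 1 match, TATAAA read on the other strand at position -68 from the start, the second held no match, that of 1700042O10Rik held none, and that of Fignl1 held 3 matches to CCGCCC at -100, -72 and -40. Among all 32851 promoter windows of the table, 11.2% held AGATAA, 13.6% TATAAA, 35.7% CCGCCC and 20.2% CAGGTG. The windows also differed in CpG number, with 2 and 5 for the starts of Ddc, 11 for 1700042O10Rik and 34 for Fignl1, against a median of 7 over all windows. The shares of windows with fewer CpGs were 14.1% and 38.0% for the Ddc starts, 58.6% for 1700042O10Rik and 92.3% for Fignl1. A match is a run of letters and not a bound site, and the counts do not show which start was used.

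Ddc was far higher in CM3-labelled than in CM1-labelled nuclei of every library. It stood at 1165, 1104, 1974 and 1507 CPM in CM3-labelled nuclei, against 59.0, 79.6, 110.1 and 104.8 CPM in CM1-labelled nuclei. The log2 ratios were 4.30 (4.11 to 4.50), 3.79 (3.61 to 3.98), 4.17 (4.00 to 4.34) and 3.85 (3.71 to 3.98), and the lowest CM3-labelled sum lay above every CM1-labelled sum. The antisense 1700042O10Rik stood at 562, 635, 871 and 746 CPM against 18.3, 29.0, 30.9 and 31.4, with log2 ratios of 4.94, 4.45, 4.82 and 4.57. Fignl1 rested on 77 UMIs in all CM3-labelled nuclei and stood at 23.7, 24.9, 31.9 and 20.8 CPM against 7.06, 9.07, 5.96 and 6.34, with log2 ratios of 1.75 (0.83 to 2.61), 1.46 (0.59 to 2.28), 2.42 (1.41 to 3.41) and 1.71 (0.90 to 2.50). These genes were among those the transfer could use, so their levels describe the label and do not test it. The use of strand in the counting is not given in the sources used here, so reads of Ddc and of the antisense transcript inside it cannot be told apart.

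**Figure D1:**
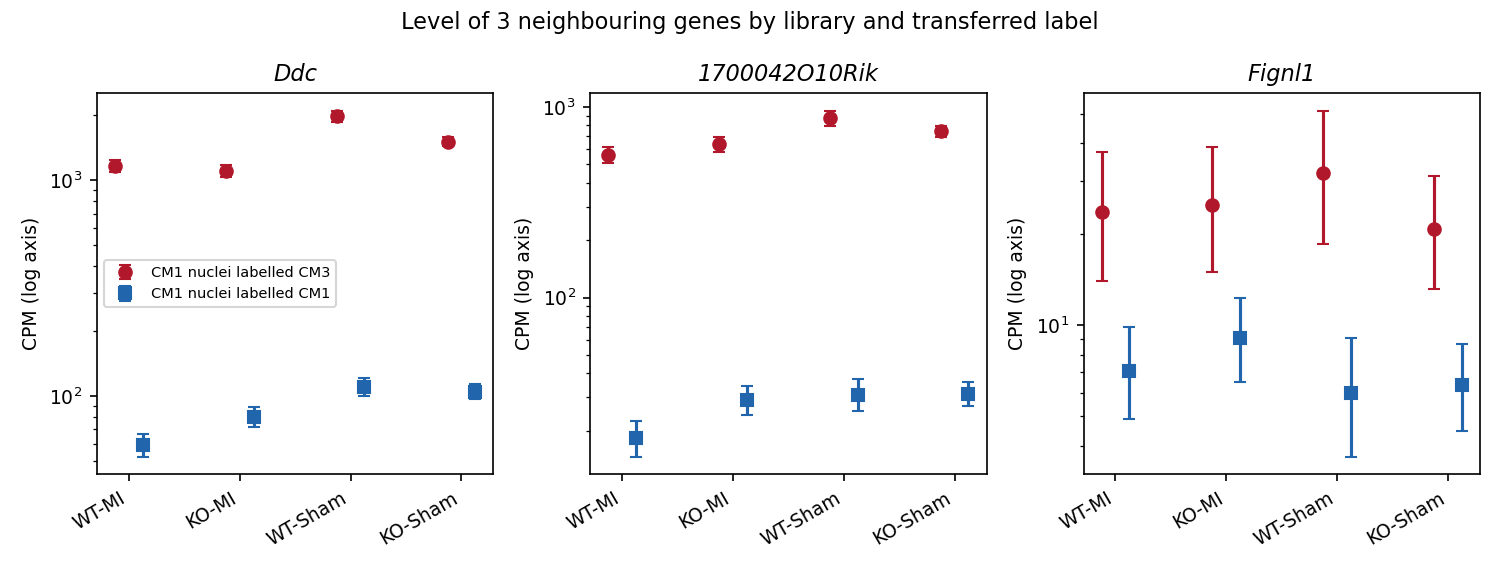
Level of Ddc, 1700042O10Rik and Fignl1 in CPM on a log axis for the 4 libraries, in CM3-labelled (circles) and CM1-labelled (squares) CM1 nuclei, with exact 95% Poisson intervals. Circles lie above squares for each gene in every library, by the widest margin for 1700042O10Rik and the narrowest for Fignl1.

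Beyond Ddc the next measured genes were near the level of CM1-labelled nuclei, and on the side of Fignl1 they were too sparse to place. Grb10, which encodes an adaptor that dampens insulin signalling and lies 32364 bases beyond Ddc, stood at 686, 694, 963 and 795 CPM in CM3-labelled nuclei against 631, 682, 877 and 699 in CM1-labelled nuclei. Its log2 ratios were 0.12, 0.03, 0.14 and 0.19, and the interval held 0 in each library except KO-Sham (0.08 to 0.29). Cobl, an actin nucleator, had ratios of -0.06, -0.02, -0.18 and 0.06. Zpbp and Spata48 on the other side had 29 and 22 UMIs in CM3-labelled nuclei and ratios of both signs, while Ikzf1, a lymphoid factor between them and Fignl1, had 8 UMIs against 21 in CM1-labelled nuclei. The ratio of Ikzf1 was 1.34 (-0.79 to 3.14) in WT-MI and 0.21 (-5.36 to 3.37) in KO-MI, its interval in KO-Sham had a lower bound of 1.16, and it had no CM3-labelled UMI in WT-Sham.

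Most CM3-labelled nuclei carried Ddc RNA themselves. A Ddc UMI was found in 92.7%, 92.5%, 97.9% and 92.5% of them, against 12.9%, 16.9%, 18.5% and 15% of CM1-labelled nuclei. At 1000 UMIs per nucleus the expected shares were 62.6%, 60.8%, 80.7% and 71.1% against 4.64%, 6.38%, 7.77% and 7.41%. The nuclei analysed were all cardiomyocytes, so a cell type that should lack Ddc was not at hand to show the level of free RNA, and the low share in CM1-labelled nuclei was not separated from it. CM3-labelled nuclei held 71.5% of the Ddc UMIs of CM1 with 14.0% of its UMIs, and the Ddc share was 73.1%, 70.3%, 71.3% and 71.3% in the 4 libraries. The largest number of Ddc UMIs in a nucleus was 28.

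Ddc and its antisense transcript were found in the same nuclei. Among CM3-labelled nuclei 733 held both, 136 held Ddc alone, 26 held 1700042O10Rik alone and 36 held neither, so 84.4% of nuclei with Ddc and 41.9% of those without it had the antisense RNA. Among CM1-labelled nuclei 207 held both, 619 Ddc alone, 96 the antisense alone and 4383 neither, or 25.1% against 2.14%. Nuclei with more UMIs have more chances for both, and the part of depth in these shares was not tested.

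The share of CM1 nuclei with the CM3 label rose with the number of UMIs from the 3 genes. Of the 4487 CM1 nuclei with none, 0.802% were CM3-labelled, of the 669 with 1 UMI 9.72%, and of the 256 with 2 UMIs 28.1%. The share was 55.9% of 299 nuclei with 3 to 4 UMIs, 76.3% of 455 with 5 to 9 and 89.1% of 274 with 10 or more. The 36 CM3-labelled nuclei without a UMI of these genes had a median CM3 score of 0.563 and a median of 3016 UMIs, against 0.758 and 3238 for the others. The label and these genes thus did not coincide fully at either end. These genes were chosen for their difference between the labels, and the label was made from the same RNA. The rise therefore describes the label and does not test it. Deeper nuclei also have more chances for such a UMI, and the part of depth was not tested.

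**Figure D2:**
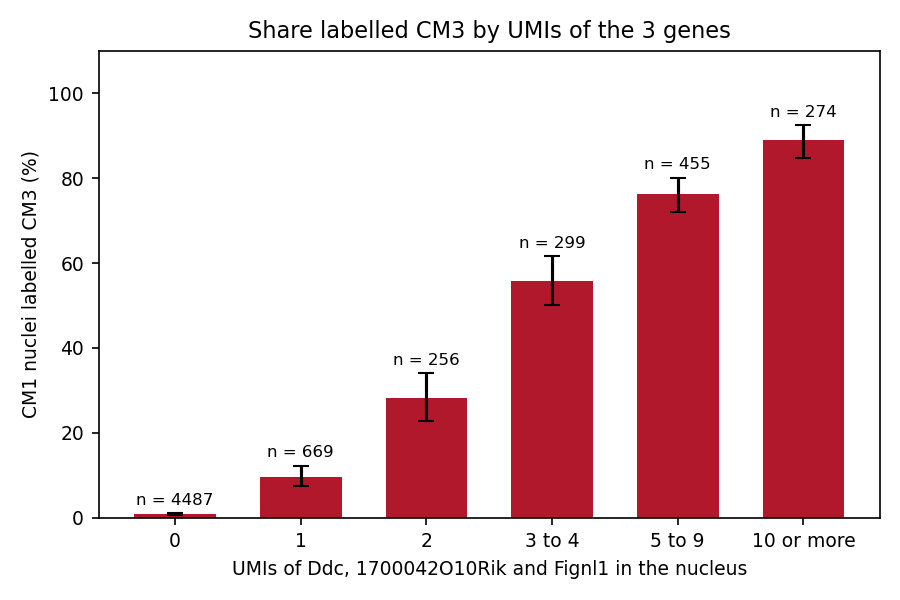
Percent of CM1 nuclei labelled CM3 (bars, axis from 0) by the number of UMIs of Ddc, 1700042O10Rik and Fignl1 in the nucleus, with exact 95% binomial intervals and the number of nuclei above each bar. The share was 0.802% without such a UMI and 89.1% at 10 or more. The label was made from the same RNA, so the rise describes the label and does not test it.

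Among the genes with enough UMIs, no other differed as much as Ddc and its antisense transcript. Of 10279 genes with at least 20 UMIs over both sums in every library, 189 (1.84%) were higher and 529 (5.15%) lower in the same direction in all 4 libraries with a mean log2 ratio beyond 0.32. Size factors from DESeq2 moved this split to 244 and 412 and TMM scaling from edgeR to 149 and 586, and the median log2 ratio of all genes was -0.03, -0.06, -0.02 and -0.02. Sparse genes carried most of these calls: 3.43% were higher and 8.05% lower among genes under 500 UMIs, but 0.276% and 1.27% among those with 2000 or more. Over the 4 libraries the CM3-labelled sums held 3162638 UMIs and the CM1-labelled sums 18738287. The part of this unequal depth in the larger number of lower calls was not tested. By length the shares were 2.31% and 5.02% for genes under 10 kb and 3.16% and 7.75% for those over 200 kb.

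A stricter reading asks for an interval without 0 in each of the 4 libraries, and 5 genes (0.0486%) met it upward and 16 (0.156%) downward. These genes are named with their values known. Besides the 3 genes of the Ddc stretch, the higher ones were Cacna1c and Pdzd2. Cacna1c, the pore of the L-type calcium channel, stood at 6644, 6392, 11120 and 7774 CPM against 6086, 5936, 9879 and 7032, log2 ratios of 0.13, 0.11, 0.17 and 0.15. Pdzd2, a protein with PDZ domains, stood at 1306, 1498, 1522 and 1170 CPM against 1133, 1371, 1266 and 1011, ratios of 0.21, 0.13, 0.27 and 0.21. Both differences lay below 0.32 on the log2 scale in every library.

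The 16 lower genes were Kcnq5, Fhl2, Rabgap1l, Mpped2, Gm30382, Slc24a2, Trabd2b, Nav2, Thsd4, Srgap1, Hba-a1, Ntn1, Mmp28, Dapk1, Pde4d and Fbn2. Fhl2, a LIM protein of the sarcomere and nucleus that ranks among the abundant RNAs here, stood at 4410, 4456, 3911 and 3260 CPM against 5140, 4868, 4514 and 3708, ratios of -0.22, -0.13, -0.21 and -0.19. Kcnq5, a potassium channel subunit, stood at 558, 483, 221 and 325 CPM against 718, 632, 366 and 374, ratios of -0.36, -0.39, -0.72 and -0.20. Pde4d, which breaks down cyclic AMP, stood at 1333, 1150, 1514 and 1433 CPM against 1580, 1369, 1969 and 1579. Trabd2b, a protease that cleaves Wnt proteins, stood at 208, 219, 105 and 114 CPM against 312, 287, 231 and 180, ratios of -0.58, -0.39, -1.14 and -0.66.

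Fbn2 and Thsd4 are matrix genes among these 16. Fbn2, a fibrillin, stood at 398, 352, 193 and 202 CPM against 566, 505, 275 and 275 in CM1-labelled nuclei, with log2 ratios of -0.51, -0.52, -0.51 and -0.45. Thsd4, whose product binds fibrillin, stood at 97.4, 68.1, 30.03 and 22.6 CPM against 163, 142, 74.6 and 68.1, ratios of -0.74, -1.06, -1.31 and -1.59. Fbn2 differed by nearly the same amount in each library. The ratio of Thsd4 was further from 0 in the Sham libraries, where its CPM was lower under both labels. Whether its ratio differed with surgery was not tested.

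Of 10 genes for Slit, Robo and netrin signalling, which steers axons and migrating cells in development, 5 were called lower and 0 higher, beside 5.15% and 1.84% of all genes, and Ntn4 had a mean of 0.14. The list holds 19 genes and was drawn up after values of these genes had been seen, so its count is no independent evidence of a direction. The receptor Robo1 stood at 18.4, 14.4, 5.63 and 11.8 CPM against 31.8, 47.4, 21.8 and 35.9, on 41 UMIs in all, with ratios of -0.79, -1.72, -1.96 and -1.61. Srgap1, a GTPase-activating protein that acts below Robo receptors, stood at 48.7, 21.0, 56.3 and 41.6 CPM against 113, 122, 122 and 121, ratios of -1.22 (-1.74 to -0.74), -2.54 (-3.35 to -1.82), -1.11 (-1.70 to -0.58) and -1.55 (-2.01 to -1.12). Its level in CM1-labelled nuclei was nearly the same in all 4 libraries, while that in CM3-labelled nuclei was lowest in KO-MI. The ligand Ntn1 stood at 207, 189, 368 and 354 CPM against 281, 269, 472 and 430, ratios of -0.44, -0.51, -0.36 and -0.28. Its receptor Dcc had ratios of -2.31, -0.33, -1.06 and -0.80 on 66 UMIs, and the ligand Slit2 -1.19, -0.57, -1.20 and -1.50 on 38. The 19 genes summed to 887, 916, 1353 and 1146 CPM against 1173, 1158, 1502 and 1342. Whatever their label, 1284 CM1 nuclei with 2 or more UMIs of the Ddc stretch were also set against 4487 without any. Mean log2 ratios were 0.12 for Robo1, -0.71 for Srgap1, -0.33 for Ntn1, -0.89 for Dcc and -0.45 for Slit2. Among CM1-labelled nuclei alone (426 against 4299) they were 1.12, 0.09, -0.19, -0.69 and 0.07. By these UMIs Robo1 had ratios of -0.096, -0.599 (-1.152 to -0.081), 1.08 (0.345 to 1.797) and 0.109 over all CM1 nuclei, so its direction differed between libraries. The CM1-labelled nuclei with these UMIs had been kept by a label made from the same RNA. These values therefore do not separate the stretch from the label, and the reason for the differences was not tested.

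Among the genes farthest from 0 in the same direction in all 4 libraries, the 9 higher ones after the Ddc stretch were E130114P18Rik, C3, Gm47350, Prag1, Zscan12, Zfp105, Wrb, Dock9 and Mapk4. C3, the central complement component, stood at 47.4, 35.4, 31.9 and 38.9 CPM against 30.1, 22.2, 21.6 and 18.2, ratios of 0.65, 0.67, 0.57 and 1.10. Mapk4 stood at 46.1, 40.6, 41.3 and 30.7 CPM against 32.8, 29.5, 23.8 and 17.9. The other 7 rested on 26 to 40 UMIs each, and their intervals held 0 in all libraries with the exception of Gm47350 in KO-MI. The 12 lower ones were Nhsl2, Srgap1, Crtc2, Cchcr1, Mmp28, Scube1, Slc24a2, Lrp1b, Dhodh, Robo1, Gm15417 and Thsd4. Slc24a2, an exchanger of sodium and potassium for calcium, stood at 11.9, 14.4, 24.4 and 32.5 CPM against 45.1, 37.6, 53.6 and 57.8, and Mmp28, a matrix metalloproteinase, stood at 6.58, 5.24, 5.63 and 9.94 against 17.0, 22.2, 22.1 and 18.7. Crtc2 had 7 UMIs in all CM3-labelled nuclei, 0 of them in KO-Sham, and Cchcr1 had 8, and Gm15417 had 0 in WT-Sham, so these ratios say little.

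**Figure D3:**
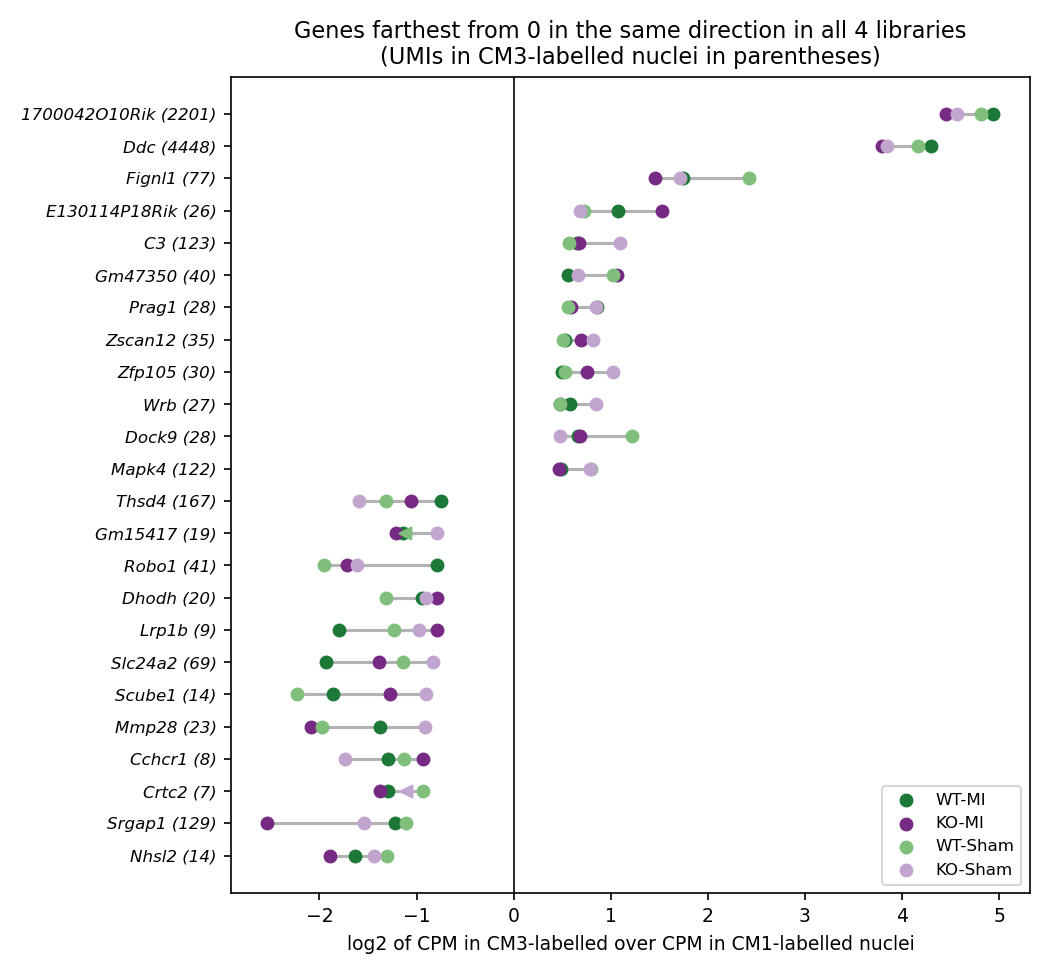
Log2 ratio of CPM in CM3-labelled over CM1-labelled nuclei in each library (points, 1 colour a library; grey lines join lowest and highest) for the 24 genes farthest from 0 in 1 direction, with UMIs in CM3-labelled nuclei in parentheses. Triangles are bounds, drawn where CM3-labelled nuclei had 0 UMIs and a floor of 3 UMIs was used; 1700042O10Rik and Ddc lie beyond 3.79, and Fignl1 lies between 1.46 and 2.42.

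Of 25 ion channel genes that passed the minimum, 2 were called higher and 1 lower, beside 1.84% and 5.15% of all genes, and the median ratios were -0.08, -0.10, -0.07 and -0.04. Kcnd2, a channel of the transient outward potassium current, stood at 398, 338, 533 and 533 CPM against 233, 226, 502 and 430, with ratios of 0.77 (0.58 to 0.95), 0.58 (0.38 to 0.78), 0.09 (-0.10 to 0.27) and 0.31 (0.18 to 0.44). Its ratios were higher in the MI libraries, where its level in CM1-labelled nuclei was lower than in the Sham libraries. Cacna1d, a calcium channel of pacemaking cells, had ratios of 0.35, 0.11, 0.53 and 0.48. The T-type channel Cacna1g stood at 36.9, 30.1, 24.4 and 23.5 CPM against 46.1, 56.7, 47.9 and 38.6, ratios of -0.32, -0.91, -0.97 and -0.72. Of 4 conduction system genes that passed, all 4 had a mean below 0 and 1, Etv1, was called lower, with ratios of -0.80, -1.13, -0.44 and -0.36 on 57 UMIs. Irx5, an Iroquois factor that represses Kcnd2 in the ventricular wall, had ratios of -1.07, -0.55, -1.32 and -1.49 on 19 UMIs. Whether the ratios of Irx5 and Kcnd2 are linked was not tested. Of 7 genes of Iroquois factors and the transient outward current 1 was called higher and 2 lower. The conduction and Iroquois lists are short and hold sparse genes, of which 8.05% were called lower over all genes under 500 UMIs.

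A few further genes are given that were named after their values were seen. Trps1, a zinc finger repressor, stood at 73.7, 93.0, 97.6 and 109.4 CPM against 43.0, 46.5, 72.0 and 51.4, ratios of 0.78, 1.0, 0.44 and 1.09. Fras1, a protein of basement membranes, had ratios of 0.72, 0.56, 0.75 and 0.40, and Spon1, a secreted spondin, 0.46, 0.47, 0.43 and 0.80. Erbb4, the neuregulin receptor of cardiomyocytes, had ratios of 0.14, 0.03, 0.18 and 0.17 and was not called, and of 24 growth receptor and signalling genes 0 were. The taurine transporter Slc6a6 was lower, at 55.3, 64.2, 22.5 and 20.8 CPM against 157, 149, 28.4 and 50.8, with a ratio of -0.33 (-1.33 to 0.54) in WT-Sham and ratios from -1.22 to -1.51 in the other libraries.

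Few genes of contraction and energy supply were called, in lists where the shares of all genes, 1.84% and 5.15%, or 0.276% and 1.27% at 2000 or more UMIs, allow few calls. Of 32 sarcomere genes that passed the minimum, 0 were called in either direction, and their median ratios were 0.03, 0.00, 0.00 and 0.01. The same held for calcium handling (21 genes), the mitochondrial genome (13), cytosolic ribosome proteins (79) and the nuclear genes of the respiratory complexes (81), each with 0 genes called and a median of the mean ratio from -0.02 to 0.01. Of 32 fatty acid oxidation genes 1 was called higher, Ucp3, and of 37 proteasome genes 1, Adrm1, a ubiquitin receptor. Of 17 injury response genes 0 were called, and Nppa, the natriuretic peptide raised by wall stress, stood at 2022, 2277, 131 and 211 CPM against 1957, 2367, 149 and 262, so the libraries differed far more than the labels.

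Beside the 5.15% of all genes called lower, and 8.05% of those under 500 UMIs, some short lists had calls. Of 11 heat shock genes 3 were called lower (Hsf1, Dnajb1 and Dnaja1), with ratios for Hsf1 of -0.05, -0.83, -1.57 and -0.22. Of 7 genes of the trabecular layer, the spongy inner wall of the ventricle, 2 were called lower and 0 had a mean above 0, with medians of -0.60, -0.06, -0.18 and -0.24, and of 3 genes of the outer compact layer 0 were called. Of 23 imprinted genes 0 were called, Ddc not being on that list. Of 4 genes for the synthesis of catecholamines and serotonin that passed, of 15 listed, Ddc alone was called, and Gch1, which makes the cofactor of the first step, had a mean ratio of -0.31. The 6 lists on guidance, catecholamines, imprinting, the 2 wall layers and Iroquois factors were drawn up after values had been seen.

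**Figure D4:**
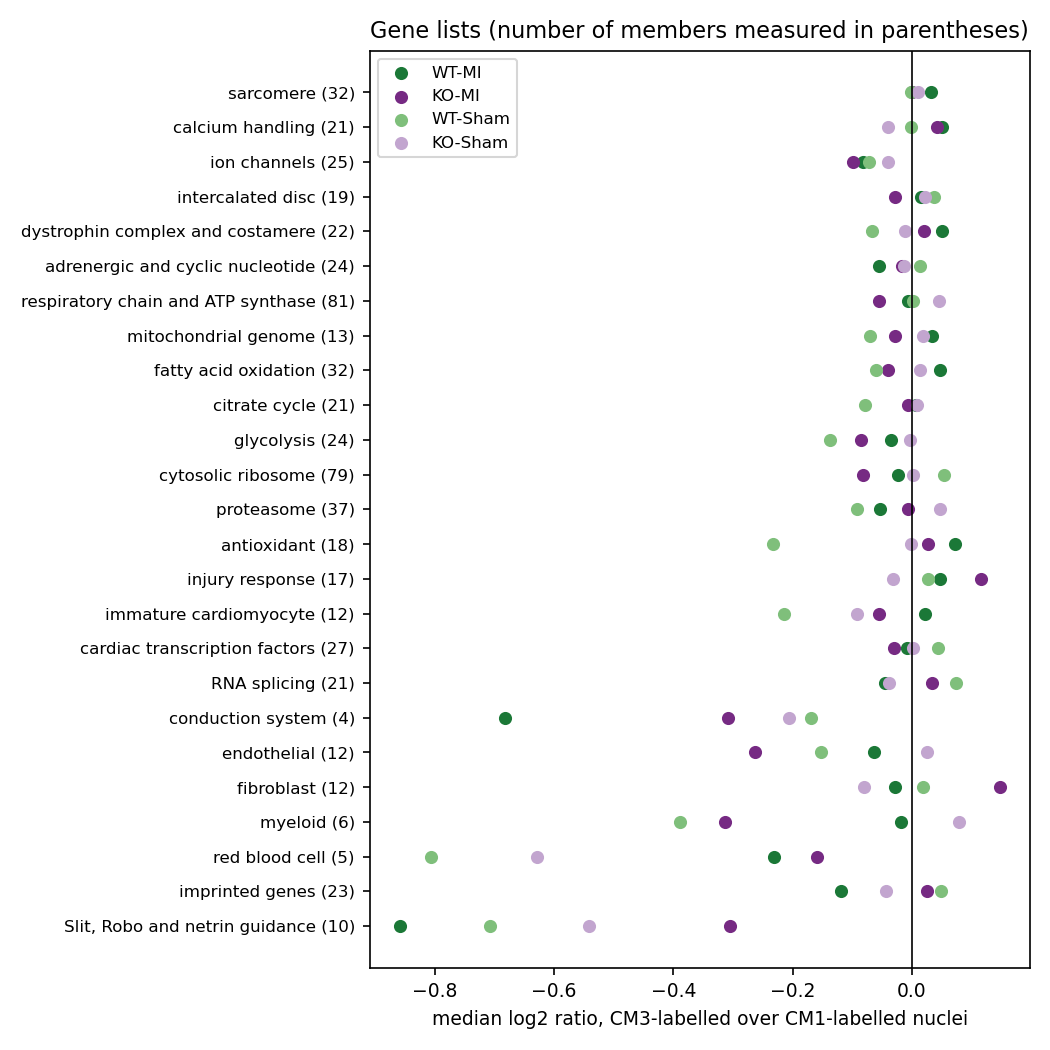
Median log2 ratio, CM3-labelled over CM1-labelled, of 25 gene lists in each library (points, 1 colour a library), with the number of measured genes in parentheses. Sarcomere, respiratory chain and ribosome lists lie at 0, whereas the guidance list lies between -0.86 and -0.31 and the red blood cell list between -0.81 and -0.16.

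RNA of other cell types was present in both labels, and the calls in these lists stand beside 1.84% of all genes higher and 5.15% lower, or 3.43% and 8.05% under 500 UMIs. Red blood cell genes summed to 3377, 1901, 1725 and 1324 CPM in CM3-labelled nuclei against 3884, 2038, 2682 and 1916, and 2 of 5 were called lower, Hba-a1 among them with ratios of -0.23, -0.29, -0.91 and -0.63. The 14 endothelial genes summed to 524, 542, 428 and 871 CPM against 538, 620, 472 and 863, and of 12 that passed, 2 were called higher (Kdr and Ptprb) and 3 lower (Emcn, Eng and Cdh5). Fibroblast genes summed to 1096, 1141, 1216 and 985 CPM against 1112, 1082, 1187 and 1075, and myeloid genes to 559, 266, 116 and 123 against 552, 293, 140 and 103. Of 3 epicardial genes that passed, 2 were called lower, Tbx18 with ratios of -0.34, -0.66, -2.83 and -1.09 on 23 UMIs. The haemoglobin difference ran beside every ratio above, and its part in them was not tested. Restricting the comparison to nuclei without any UMI of these lists left 0 CM3-labelled nuclei.

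CM3-labelled nuclei did not form a group apart from CM1. Among the 15 nearest neighbours of a CM3-labelled nucleus, 21.4%, 22.5%, 19.95% and 23.2% were CM3-labelled, against 13.7%, 15.4%, 11.3% and 14.4% around CM1-labelled nuclei. After Ddc, 1700042O10Rik and Fignl1 were left out the shares were 18.02%, 19%, 16.3% and 20.4% against 15.4%, 17.8%, 13.2% and 17.0%. The label itself was held by 14.2%, 14.6%, 13.2% and 16.2% of the nuclei compared, so the gap between the labels was narrower without these genes and kept its sign in each library.

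The libraries were then compared within CM3-labelled nuclei, to ask how injury and genotype bore on them. The 4 contrasts share libraries and are not independent of each other. A gene was called where the ratio passed 1.5-fold, its interval held no 0 and both sums together had 50 or more UMIs. For KO-MI over WT-MI, 104 of 4594 genes (2.26%) were higher and 105 (2.29%) lower. For KO-Sham over WT-Sham, 374 of 4910 (7.62%) were higher and 335 (6.82%) lower, and TMM scaling, which shifted this ratio by 0.14 on the log2 scale, gave 584 and 145. For WT-MI over WT-Sham, 310 of 4137 (7.49%) were higher and 453 (10.9%) lower, or 415 and 322 with TMM scaling. For KO-MI over KO-Sham, 492 of 5275 (9.33%) were higher and 575 (10.9%) lower. CM1-labelled nuclei, whose sums hold more UMIs, had 1.67% of genes higher and 1.33% lower in the first contrast, 5.56% and 3.57% in the second, 7.21% and 10.4% in the third and 9.26% and 9.59% in the last.

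Of 15 injury genes measured, 10 were called higher in WT-MI over WT-Sham and 10 in KO-MI over KO-Sham, beside the 7.49% and 9.33% of all genes. Nppa, atrial natriuretic peptide, stood at 2022 CPM in WT-MI and 2277 in KO-MI against 131 in WT-Sham and 211 in KO-Sham, log2 ratios of 3.94 (3.60 to 4.31) and 3.43 (3.24 to 3.64). Nppb stood at 749 and 812 CPM against 28.2 and 91.3, ratios of 4.73 and 3.15, and Ankrd1, a stretch-responsive repeat protein, stood at 1645 CPM in KO-MI against 145 in KO-Sham. CM1-labelled nuclei gave 3.71 and 3.17 for Nppa and 4.12 and 2.93 for Nppb. Both labels thus had these peptides far above Sham.

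Ccn2 and Spp1 were among the leading genes of both contrasts. Ccn2, a matrix protein that responds to stretch, stood at 172 CPM in WT-MI and 147 in KO-MI against 9.38 in WT-Sham and 6.33 in KO-Sham, ratios of 4.20 (2.94 to 5.85) and 4.54 (3.45 to 5.88). Spp1 (osteopontin) had 142 UMIs in WT-MI and 0 in WT-Sham, a log2 ratio of at least 5.05 against a floor of 3 UMIs per library, and 130 UMIs in KO-MI against 4 in KO-Sham, a ratio of 5.56 (4.17 to 7.46). Spp1 is also made by macrophages, and the neutrophil genes S100a8 and S100a9 were higher too, S100a8 at 180 CPM in WT-MI and 11.3 in WT-Sham. Myeloid genes as a whole summed to 559, 266, 116 and 123 CPM, and their part in these ratios was not tested. Meg3, an imprinted noncoding RNA, stood at 569 CPM in KO-MI and 45.2 in KO-Sham.

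Metabolic lists differed from each other after MI, beside 10.9% of all genes called lower in each of these contrasts and 7.49% and 9.33% called higher. Of 30 fatty acid oxidation genes 13 were called lower in WT-MI over WT-Sham, and of 32 such genes 15 in KO-MI over KO-Sham, with medians of -0.48 and -0.60. Respiratory chain genes were lower for 16 of 80 (median -0.39) with WT and for 76 of 81 (median -1.08) with KO, where CM1-labelled nuclei had medians of -0.36 and -0.96. Of 20 glycolysis genes 6 were called higher with WT, Hk1, Pfkp, Tpi1, Pgk1, Pgam1 and Eno1, and 1 lower, Ldhb (median 0.305), and of 21 such genes 3 were higher and 4 lower with KO (median 0.04). Of 21 citrate cycle genes 1 was lower with WT and 6 with KO, with medians of 0.06 and -0.50. Kcnip2, a partner of Kcnd2, was lower as well with ratios of -1.06 and -1.29, and so was Hey2, a factor of the compact wall, with -1.18 and -1.03. Atcayos, a noncoding transcript, led the lower genes in WT-MI over WT-Sham at 48.7 against 445 CPM and stood at 95.6 against 430 in KO-MI over KO-Sham. The mitochondrial share of UMIs given above was lower in both MI libraries than in their Sham pair, and its part in these ratios was not tested.

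The genotype contrasts are given next, and the difference between them was not tested. In KO-Sham over WT-Sham, 66 of 81 respiratory chain genes were called higher (median 0.82, beside 0.83 in CM1-labelled nuclei) and 31 of 79 cytosolic ribosome genes (median 0.54), against 2 of 80 and 1 of 78 in KO-MI over WT-MI, beside 7.62% and 2.26% of all genes. KO-Sham was also the library with the shallowest nuclei and the highest mitochondrial share, and depth, pool and genotype cannot be told apart with 1 library each. Nppa was higher in KO-Sham than WT-Sham, 211 against 131 CPM, a ratio of 0.68 (0.29 to 1.09), and Nppb 91.3 against 28.2, a ratio of 1.70. The leading gene of this pair was Xist, which is expressed from the inactive X chromosome of females, at 774 against 122 CPM, and Y-linked genes were lower for 3 of 3, so the pools differed in the mix of sexes. The contrasts of MI with Sham carried such a difference as well, with Xist ratios of 3.14 for WT and 0.98 for KO and 2 of 2 Y-linked genes lower in each. So did KO-MI over WT-MI, with a ratio of 0.51 (0.38 to 0.64) for Xist and 1 of 1 Y-linked genes, Uty, lower. The part of sex in the ratios of any of these contrasts was not tested. Between the labels, CM3-labelled over CM1-labelled, Xist had log2 ratios of 0.087, -0.065, -0.471 (-0.863 to -0.1) and -0.024. The part of sex in the ratios between the labels was not tested either.

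In KO-MI over WT-MI the 5 lowest ratios were those of Stfa1, S100a8, S100a9, U2af2 and Srgn, most of them genes of blood cells. Stfa1 and S100a8, both of neutrophils, stood at 21.0 against 75.02 and 69.4 against 180 CPM, S100a9 at 78.6 against 195, and 3 of 3 myeloid and 4 of 4 red blood cell genes were called lower, beside 2.29% of all genes. The highest were Pbdc1, Hint3, Saraf, Mtpn and Tmod3, with 53 to 82 UMIs over both libraries and ratios from 1.18 to 1.30, whereas CM1-labelled nuclei had ratios from -0.43 to 0.28 for these genes. The genes were taken for their ratios in CM3-labelled nuclei, so values nearer 0 under the other label show no difference between the labels. Among 13 genes the study named, Nfe2l1 was called higher and Psmd1, a proteasome subunit, lower. Of 29 proteasome genes 1 was called higher and 1 lower, near the 2.26% and 2.29% of all genes. Srgap1 was lower in KO-MI, 21.0 against 48.7 CPM, a ratio of -1.22 (-2.16 to -0.34), beside 0.10 (-0.08 to 0.27) in CM1-labelled nuclei.

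Ddc itself varied between libraries. Within CM3-labelled nuclei it was lower in WT-MI than in WT-Sham, 1165 against 1974 CPM, a ratio of -0.76 (-0.89 to -0.63), beside -0.90 (-1.13 to -0.68) in CM1-labelled nuclei. For KO-MI over KO-Sham it was -0.45 (-0.57 to -0.33), for KO-Sham over WT-Sham -0.39 (-0.50 to -0.28), and for KO-MI over WT-MI -0.08 (-0.22 to 0.06). 1700042O10Rik, at 562, 635, 871 and 746 CPM, likewise had both Sham libraries above both MI libraries. Over all CM1 nuclei Ddc stood at 209, 225, 355 and 319 CPM.

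**Figure D5:**
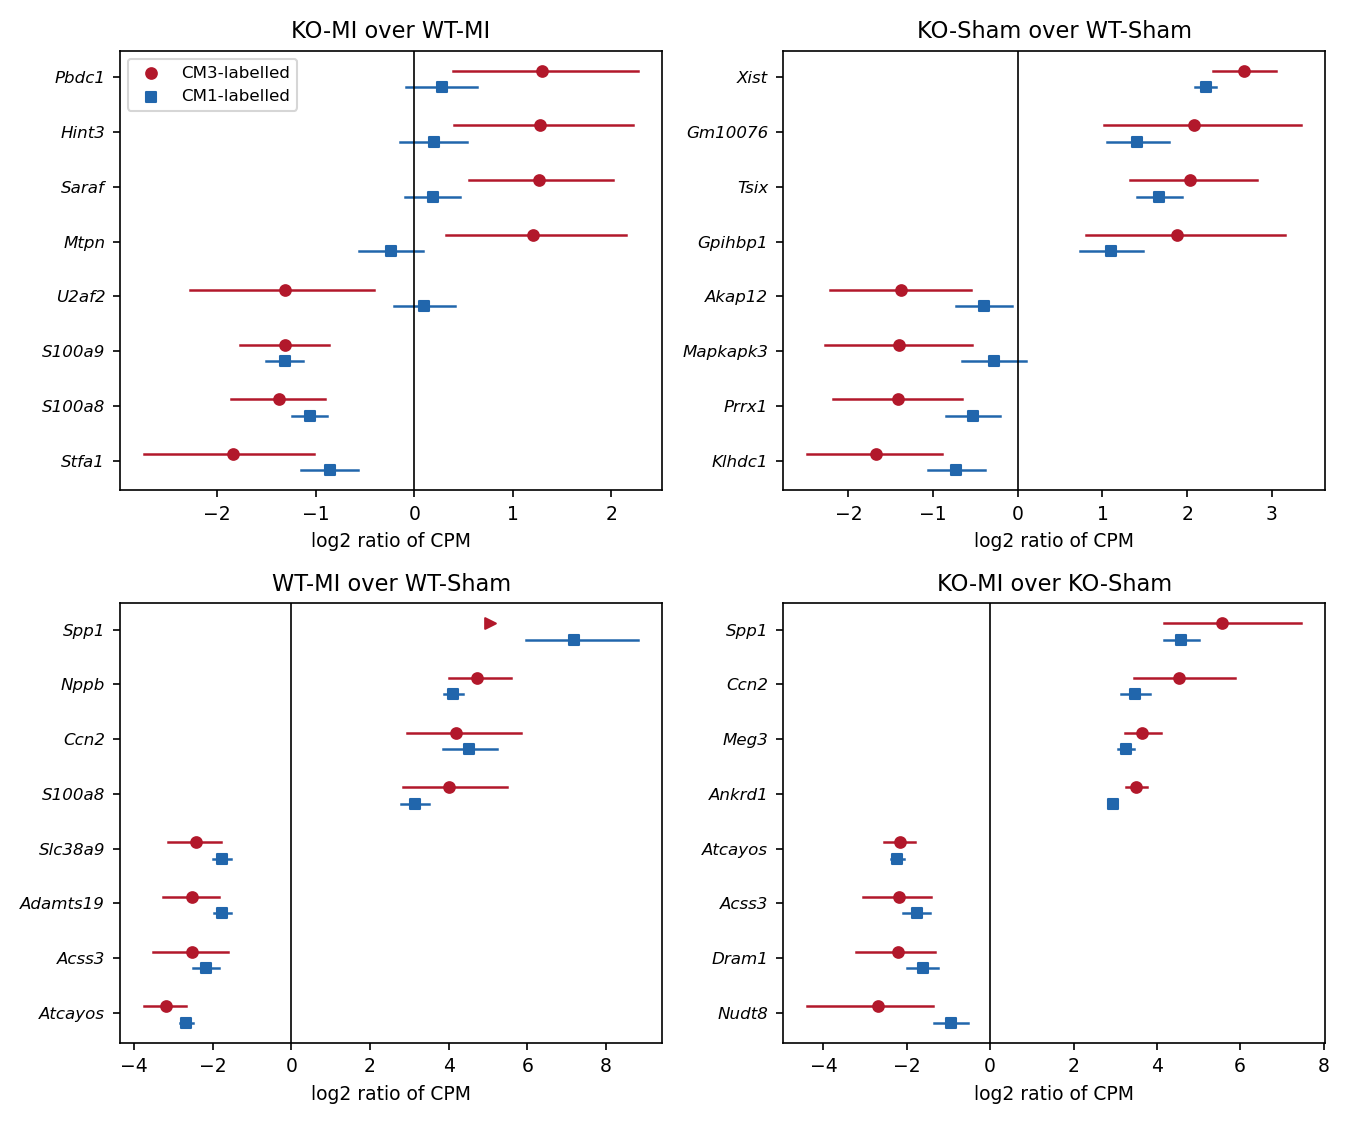
Log2 ratio of CPM between libraries for the 4 highest and 4 lowest called genes of each contrast within CM3-labelled nuclei (circles), with CM1-labelled nuclei of the same libraries (squares) and exact 95% intervals. The triangle marks Spp1 in WT-MI over WT-Sham, a bound from 0 UMIs in WT-Sham; squares lie on the side of the circles for each gene of the contrasts between MI and Sham, and nearer to 0 for most genes of KO-MI over WT-MI.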

How the data were processed

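Nuclei of 4 pooled libraries had been sequenced with 10x Genomics 3′ chemistry. The authors aligned reads with Cell Ranger to a mm10 (GRCm38) pre-mRNA reference, removed doublets with Scrublet, kept nuclei with 200 to 2500 genes, integrated libraries with Seurat 3, transferred labels from an earlier atlas and kept cardiomyocytes. The deposited table of counts holds UMI counts for 22574 genes in 8585 nuclei, and summed counts equalled the deposited UMI total in 100% of nuclei. The deposited annotation gives the transfer scores, a fraction from 0 to 1, and the percent of UMIs from mitochondrial genes, both computed by the authors. No doublet caller was run again, and 3 columns of per-nucleus values were not used. Aligner version, annotation release and use of strand are not given in the sources used here.

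Counts were summed per library and label and divided by the summed UMIs (CPM). Log2 ratios have exact conditional binomial intervals, shares Clopper-Pearson and CPM exact Poisson intervals, at 95%. PCR, free RNA and the pooling of hearts are outside these intervals. A sum of 0 was set to a floor of 3 UMIs for a bound. With 1 library per group, and labels made from the same RNA, no test was made. A gene was called between labels where it had 20 or more UMIs over both sums in each library, the same direction in all 4 and a mean log2 ratio beyond 0.32. TMM factors came from edgeR 4.0.16 and size factors from DESeq2 1.42.0 (R 4.3.3), used for scaling alone. Other steps used Python 3.11.15, numpy 2.4.6, scipy 1.17.1, pandas 2.3.3, scikit-learn 1.9.0 and matplotlib 3.10.9, and scripts were tested on simulated data. Coordinates are from GENCODE M21, which matched 22090 symbols (97.9%).

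The nuclei, the 42 gene lists and the tests were chosen with earlier results of these data known, and 6 lists were added after their values were seen. Named were Ttn, Ryr2, Tnnt2 and Nfe2l1, the 12 highest and 12 lowest genes with 1 direction by the ratio nearest 0, genes named by the study, the most abundant and the called members of each list, the 5 highest and 5 lowest called genes of each contrast between libraries, and markers of other cell types, while further names are given as chosen after their values were seen. A gene that this rule named is not reported here.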

Additional observations from a re-analysis of the deposited data

Results flagged for a closer look

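Outside CM1, 63 nuclei of CM2, CM4 and CM5 also bore the CM3 label, and they entered no comparison. Ddc stood at 1631 CPM in them and a Ddc UMI was found in 60 (95.2%), against 138 CPM and 19.6% in the 2082 nuclei of these populations with another label.

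A few genes pointed opposite ways in CM3-labelled nuclei of the MI and Sham libraries, or of the WT and KO libraries, and these differences were not tested. Of 4254 genes measured in both genotype contrasts, 3 did so. The log2 ratio was 0.66 in KO-MI over WT-MI and -1.09 in KO-Sham over WT-Sham for Ncoa5, a nuclear receptor coactivator. It was 0.69 and -0.92 for Hip1, a clathrin adaptor, and -0.88 and 0.61 for Ckmt2, the mitochondrial creatine kinase of striated muscle.

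Of 4105 genes measured in both surgery contrasts, 5 did so, WT-MI over WT-Sham standing first. The ratios were 0.76 and -1.19 for Snrpe, a core protein of the spliceosome, -0.71 and 1.04 for Ncoa5, 0.93 and -0.78 for Tmem258, a subunit of the enzyme that adds N-glycans, -0.67 and 0.82 for Ahdc1, and -0.73 and 0.60 for Clcn5, a chloride and proton exchanger of endosomes. Both sets of contrasts rest on the same 4 libraries.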

How the results depend on the processing

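No paired analysis was possible because the labels give no replicate numbers and each group was 1 library. All 28 values for shares and neighbours moved by less than their interval under the alternatives run. For neighbours this interval takes a mean share as a count over nuclei, so it is wide and a value inside it shows little. The gap between the labels among neighbours narrowed in each library without the Ddc stretch, as given above. Genes higher and lower under the label numbered 189 and 529. They numbered 354 higher with a minimum of 1 UMI, 83 and 312 with 50 UMIs, and 38 and 216 past 1.5-fold. With 1 library left out, 342 to 386 were higher and 794 to 917 lower, since 3 libraries had to share a direction. Many called genes changed with the nuclei used. Among nuclei with 2000 to 5000 UMIs, 178 were higher and 557 lower, of which 80 and 294 were among the 189 and 529. Among nuclei with 2 or more UMIs of the Ddc stretch, 5535 genes passed the minimum, and 146 were higher and 207 lower. Of these, 13 and 49 were among the 189 and 529. In the same nuclei Fignl1 (-0.152), Dnaja1 (0.061), Cdh5 (0.035) and Irx1 (0.012) turned direction. These nuclei were selected on, and labelled from, the same RNA, so the values do not separate the stretch from the label. There the median was 0.044 for sarcomere, 0.056 for respiratory chain and -0.289 for guidance genes. The sarcomere median was -0.015 with TMM and 0.035 with DESeq2 scaling, and -0.004 to 0.02 with 1 library left out. That of the compact layer, 0.01, became -0.007 with TMM and ran from -0.029 to 0.018 with 1 library left out, at -0.02 without KO-MI and -0.013 without WT-Sham. Between libraries, KO-MI over WT-MI gave 179 higher and 170 lower with 20 UMIs and 15 and 22 past 2-fold. KO-Sham over WT-Sham gave 584 and 145 with TMM and 117 and 42 past 2-fold, WT-MI over WT-Sham 695 lower with 20 UMIs and 126 and 159 past 2-fold, and KO-MI over KO-Sham 155 and 257 past 2-fold. A restriction to nuclei with no UMI of other cell types could not be run, since it left 0 CM3-labelled nuclei. This selection was chosen after seeing the data. Without replicates, animal, pool and library cannot be told apart.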
